A study of Mus musculus with 41 samples.

Results

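The genes described here are 35 mouse genes of the meiotic chromosome axis, the synaptonemal complex and meiotic recombination, taken by name from the 55536 genes of each count table and from the peak annotation. They were chosen for their function, but with earlier results of these data known. By role, 8 encode cohesins and axis proteins, 5 the central region of the synaptonemal complex, 5 factors of DNA break formation, 5 strand exchange factors, 5 crossover factors, 3 proteins that attach telomeres to the nuclear envelope, 2 RNA-binding factors of meiotic entry and 2 chromatin or transposon-silencing factors. All 35 were found in both tables. The series holds 41 samples: 8 RNA-seq, 24 iSLAM-seq and 9 CUT&Tag libraries. The RNA-seq libraries came from testis germ cells of C57BL/6 mice that carried an OCT4-eGFP reporter and were sorted for eGFP. Of these libraries, 4 are labelled wild-type and 4 Rhox10-null, and each pooled the testes of 3 animals whose age the labels do not give. iSLAM-seq, which sequences metabolically labelled RNA, used germline stem (GS) cells cultured from neonatal testes. All of these cultures carried an shRNA against Rhox10, and each received either a Rhox10-ERT2-mCherry lentivirus, whose protein responds to 4-hydroxytamoxifen, or the ERT2-mCherry vector without Rhox10, called the empty vector below. There were 2 libraries for each vector at 0, 0.5, 1, 2, 4 and 8 h. CUT&Tag, which tags DNA where an antibody is bound, used 3 libraries each of knockdown cells with HA-tagged Rhox10 and an HA antibody, of cells with an empty vector and the HA antibody, and of cells with IgG. The labels do not say that GS cell libraries came from separate cultures, so p-values of that assay measure the spread between these libraries, which may be technical.

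RHOX10 is an X-linked homeobox transcription factor of male germ cells. In meiotic prophase, cohesins and axis proteins shape each chromosome, SPO11 cuts DNA, DMC1 helps to search for the homologous chromosome, and the synaptonemal complex holds the homologues together while some breaks become crossovers. Spermatogonial stem cells have not entered meiosis, and many of these genes are held low in such cells by DNA methylation and by a Polycomb complex that contains E2F6, MAX, MGA and L3MBTL2, while retinoic acid and STRA8 start their programme.

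Promoter sequences of the members on which the peak and expression results turn are printed first. A promoter of 28 of the 35 genes was matched in a RefSeq table on GRCm38.p6, with 33 starts in all and a window from 250 bases before to 50 bases after each start. The following 150 bases lie just before the start, 5′ to 3′ on the strand of the gene, of the 7 genes with such an entry to which the authors annotated a RHOX10 peak within 3 kb. Capitals mark TCCCGC, the core of the E2F6 motif, on either strand (GCGGGA on the other), and CACGTG, the E-box bound by MAX and MGA.
Smc1b, chr15:85131958-85132107, minus strand: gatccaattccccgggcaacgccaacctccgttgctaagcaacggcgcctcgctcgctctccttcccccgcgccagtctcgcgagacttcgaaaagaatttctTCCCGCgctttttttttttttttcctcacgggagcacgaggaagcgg
Dmc1, chr15:79605110-79605259, minus strand: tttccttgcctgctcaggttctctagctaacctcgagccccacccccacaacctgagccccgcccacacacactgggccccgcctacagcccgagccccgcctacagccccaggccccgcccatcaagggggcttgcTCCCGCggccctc
Mei4, chr9:81863520-81863669, plus strand: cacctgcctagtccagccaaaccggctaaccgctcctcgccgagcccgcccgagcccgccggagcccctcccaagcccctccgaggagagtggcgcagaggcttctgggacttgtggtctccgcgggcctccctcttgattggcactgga
Rad51ap2, chr12:11455905-11456054, plus strand: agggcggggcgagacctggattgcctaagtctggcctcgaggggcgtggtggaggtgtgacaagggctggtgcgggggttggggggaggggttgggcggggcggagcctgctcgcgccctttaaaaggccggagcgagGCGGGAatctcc
Hfm1, chr5:106925891-106926040, minus strand: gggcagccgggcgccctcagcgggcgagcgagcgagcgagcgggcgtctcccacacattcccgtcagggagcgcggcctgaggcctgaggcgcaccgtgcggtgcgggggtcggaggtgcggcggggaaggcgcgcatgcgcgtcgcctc
Meioc, chr11:102665435-102665584, plus strand: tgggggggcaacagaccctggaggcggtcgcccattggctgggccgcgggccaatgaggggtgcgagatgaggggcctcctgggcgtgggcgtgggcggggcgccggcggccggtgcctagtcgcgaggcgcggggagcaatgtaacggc
Rad21l, chr2:151668534-151668683, minus strand: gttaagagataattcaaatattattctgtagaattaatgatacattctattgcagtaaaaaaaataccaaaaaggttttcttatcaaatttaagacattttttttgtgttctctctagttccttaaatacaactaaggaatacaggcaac
The next sequences belong to genes of the synaptonemal complex that were lower in both expression assays and had no peak within 3 kb, marked in the same way. For Syce2, which has 2 starts in the table, the more upstream one is shown.
Sycp1, chr3:102936101-102936250, minus strand: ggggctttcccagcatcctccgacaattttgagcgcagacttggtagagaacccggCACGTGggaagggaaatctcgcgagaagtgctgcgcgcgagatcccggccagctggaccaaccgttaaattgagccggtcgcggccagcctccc
Syce1, chr7:140787855-140788004, minus strand: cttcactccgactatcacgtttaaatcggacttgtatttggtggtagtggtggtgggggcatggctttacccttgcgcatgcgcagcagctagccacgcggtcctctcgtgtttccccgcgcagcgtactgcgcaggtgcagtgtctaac
Syce2, chr8:84871961-84872110, plus strand: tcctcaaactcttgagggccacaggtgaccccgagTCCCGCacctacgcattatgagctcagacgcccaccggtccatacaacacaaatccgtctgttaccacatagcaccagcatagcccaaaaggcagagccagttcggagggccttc
In the Sycp1 sequence the capitals are an E-box, and in the Syce2 sequence they are the E2F6 core. Within the window of 300 bases, TCCCGC occurred on either strand in 21 of the 33 member promoters (63.6%), against 20% of all 32851 promoters in the table. CACGTG occurred in 9 (27.3%) against 7.15%. The homeodomain core TAAT, on either strand, occurred in 11 (33.3%) against 58%. The 33 promoters belong to 28 genes, and some starts of the same gene lie a few bases apart. Counted by gene, TCCCGC occurred in 18, CACGTG in 8 and TAAT in 9 of the 28. The member promoters were richer in CG, with a median of 18 CG dinucleotides (range 2 to 41) against 7, and the letters of the first 2 motifs contain CG. A match is only a description of the letters. Of the 7 peak genes above, 6 have a window that overlaps the peak. These 6 windows held 16 to 41 CG and no CACGTG or TAAT, and 5 of them held TCCCGC, for Hfm1 and Meioc in the part of the window that is not printed. The window of Rad21l, whose peak lies farther upstream, held 2 CG and 9 matches of TAAT.

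The RNA-seq libraries held 6602089 to 8278887 counts, of which a single gene took 50.98% to 59.37%, and the iSLAM-seq libraries held 9419615 to 12645845. Counts of the members tested in RNA-seq ran from 1 to 536 per library. The targeted gene, Rhox10, had 3, 10, 5 and 3 counts in the libraries labelled wild-type and 11, 9, 4 and 6 in those labelled null (0.810 ± 0.522 against 0.920 ± 0.346 CPM, SD, n = 4 each). The counts of the targeted gene were thus not lower under the null label, but they are too few to show whether it was lost. Every RNA-seq direction below is that of the labels. In iSLAM-seq, Rhox10 was at 0.202 to 2.42 CPM with the empty vector and at 34.0 to 46.7 CPM with the Rhox10 vector, and already differed at 0 h (log2 fold change 4.79, adjusted p = 2.40e-08, edgeR). CPM relates a count to the library size after TMM scaling. The 2 empty-vector libraries at 0.5 h differed from each other more than any other pair (chi-square per degree of freedom 26.6, against 2.61 to 4.57 in the other iSLAM-seq pairs). Results over the induced times are therefore also given without the 0.5 h libraries.

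The first comparison asked which meiotic genes differed between the genotypes. Of the 27 members tested, 14 had lower values in the libraries labelled null and 2 had higher ones, with an adjusted p under 0.05 in the quasi-likelihood test of edgeR. These are 51.9% and 7.41% of those tested, against 18.9% lower and 18.6% higher among all 13538 genes tested. The median log2 fold change was -0.73 over the 27 members and 0.00 over all genes. Tex11, Mei1, Smc1b and Rec114 had the lowest fold changes, and Rec8 and Prdm9 were the higher ones. The CPM values of the genotypes did not overlap for 16 of the 27 (59.3%), against 32.2% of all genes. The summed level of all 35 genes was 259 to 284 CPM in the libraries labelled wild-type (267 ± 11.3, SD, n = 4) and 154 to 167 CPM in those labelled null (158 ± 6.11). In bulk samples, fewer cells of a type and less RNA per cell cannot be told apart.

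Other gene lists moved with the genotype label. A list of 15 spermatogonial markers summed to 232 to 243 CPM in the libraries labelled wild-type and to 113 to 122 CPM in those labelled null, with 11 of 12 tested genes lower and a median log2 fold change of -0.94. Erythroid genes, which mark red blood cells, summed to 5.29 to 8.44 and 87.2 to 98.6 CPM (7 of 7 tested higher), and Slc4a1 of that list was at 0 in every library labelled wild-type. Genes so low under the wild-type label can pass the filter on low counts through the libraries labelled null alone, which favours this direction. Somatic testis markers summed to 636 to 675 and 877 to 930 CPM (12 of 17 higher). Among all genes tested, 18.9% were called lower and 18.6% higher. A list of 16 late spermatocyte and spermatid genes summed to 5.09 to 8.12 and 6.22 to 7.33 CPM, and Tnp2, Prm1 and Prm2, which package sperm DNA, were at 0 in all 8 libraries. The part of these lists in the differences of the meiotic genes was not tested. The scaling matters for the split. With library totals in place of TMM, 13 members were lower and 7 higher, and the median of all genes moved up by 0.35. Of all 13538 genes tested, 7828 were then called, 7189 of them higher. Scaled to a list of 20 germ-cell genes, itself lower in the libraries labelled null (median -0.76, 18 of 20 called), 4 members were lower and 10 higher, and the median of all genes moved up by 0.82.

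**Figure D1:**
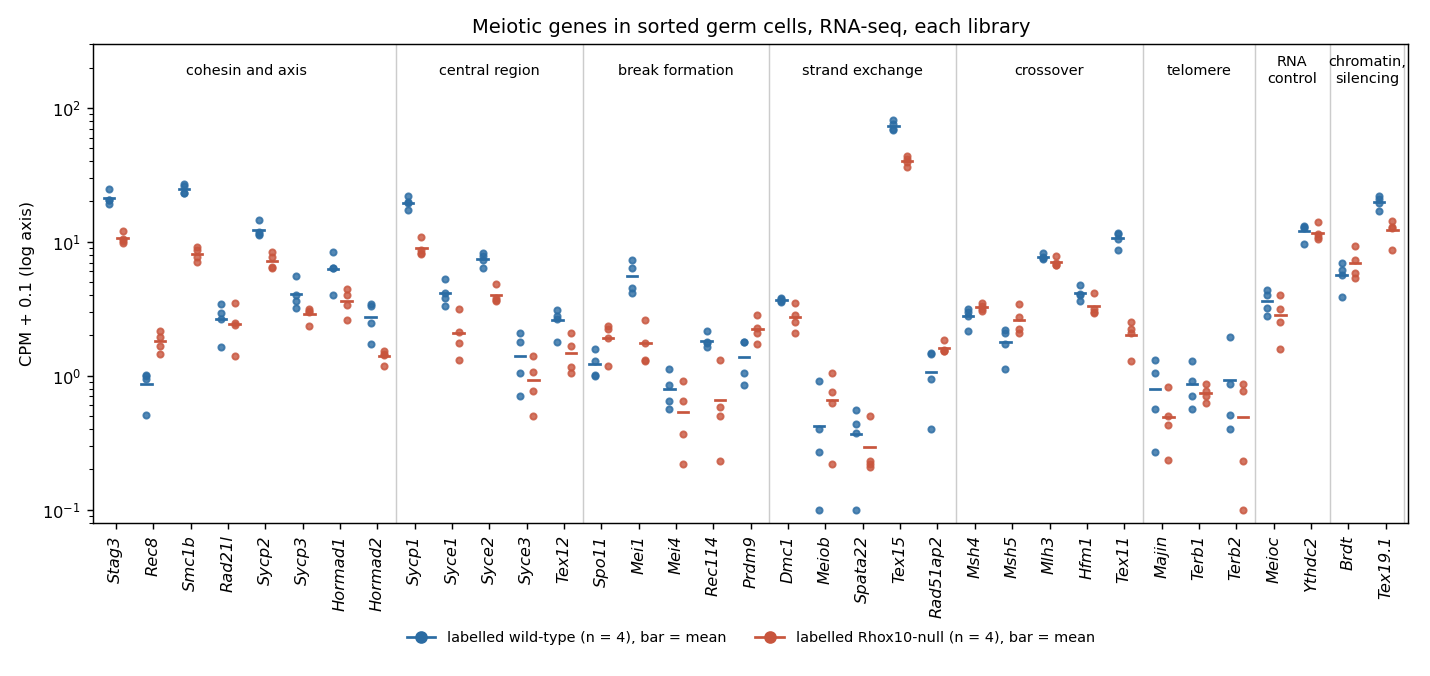
RNA-seq level of each of the 35 genes, grouped by role, as CPM plus 0.1 on a log axis. Each point is 1 library (4 labelled wild-type, 4 labelled Rhox10-null) and the bars are group means. Stag3, Smc1b, Sycp1, Tex15 and Tex11 have no overlap between the genotypes, and Rec8 has the opposite order.

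Among the cohesins and axis proteins, 5 of 8 tested members were called lower with the null label and 1 was called higher. Smc1b encodes the meiotic SMC subunit of cohesin (ENSMUSG00000022432, GRCm38 chromosome 15, 85064689 to 85131964, minus strand). It was at 23.2, 23.0, 27 and 25.9 CPM in the libraries labelled wild-type and at 9.06, 8.61, 7.57 and 7.0 CPM in those labelled null. The groups lie far apart, with every library labelled null below 10 CPM. The log2 fold change was -1.61 (SE 0.0989, adjusted p = 2.07e-17, edgeR). Stag3 encodes the meiotic SA subunit of cohesin (chromosome 5, 138280240 to 138312393, plus strand). Its values were 19.0, 24.7, 20.5 and 20.5 against 10.4, 9.67, 12 and 9.96 CPM. Again all 4 libraries labelled null lay below all 4 others, with a log2 fold change of -1.0 (SE 0.0992, adjusted p = 4.57e-11). Sycp2, a component of the axial element, was at 14.4, 11.2, 11.4 and 11.7 against 7.54, 8.34, 6.37 and 6.32 CPM. The genotypes did not overlap, and replicate 1 was the high library of those labelled wild-type (log2 fold change -0.77, SE 0.124, adjusted p = 3.32e-06). Hormad1, an axis protein that monitors synapsis, was at 8.27, 6.29, 3.90 and 6.24 against 3.28, 4.37, 2.52 and 3.90 CPM. Here the groups overlapped, since the lowest library labelled wild-type lay within the range of those labelled null, while the test gave -0.84 (SE 0.191, adjusted p = 0.000504). Hormad2, its paralog, ran from 1.63 to 3.31 CPM against 1.08 to 1.42 CPM, without overlap (log2 fold change -1.0, adjusted p = 0.00407, edgeR). Rec8, the kleisin that closes the meiotic cohesin ring, went the other way. It was at 0.902, 0.920, 0.848 and 0.407 CPM in the libraries labelled wild-type and at 2.07, 1.85, 1.56 and 1.35 CPM in those labelled null. All 4 libraries labelled null were higher (log2 fold change 1.17, SE 0.345, adjusted p = 0.00655), but Rec8 passed the filter on low counts through those libraries alone. Its call was lost with DESeq2 (adjusted p = 0.0519) and without replicate 4 of the libraries labelled wild-type (adjusted p = 0.05, edgeR). Rad21l, the other meiotic kleisin, had a log2 fold change of -0.17 (adjusted p = 0.644). Sycp3, which forms the axial element with SYCP2, had -0.50 (adjusted p = 0.0552), although its groups did not overlap; it overlaps Chpt1 on the opposite strand, so its counts are uncertain.

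All 4 tested genes of the central region were lower in the libraries labelled null. Sycp1, the transverse filament protein that spans the gap between homologues (chromosome 3, 102818499 to 102936100, minus strand), was at 21.7, 19.8, 19.3 and 17.1 against 10.8, 8.08, 8.05 and 8.61 CPM. Every library labelled null lay below 11 CPM (log2 fold change -1.11, SE 0.106, adjusted p = 1.69e-11). The central element proteins stabilise this zipper. Syce2 (chromosome 8, 84872111 to 84888221, plus strand) was at 7.22, 7.67, 8.14 and 6.24 against 3.71, 4.77, 3.60 and 3.5 CPM. These groups did not overlap, and replicate 2 was the highest of the libraries labelled null (log2 fold change -0.90, SE 0.159, adjusted p = 1.45e-05). Syce1 (chromosome 7, 140777229 to 140787852, minus strand) was at 4.06, 3.22, 3.73 and 5.16 against 1.64, 3.05, 1.20 and 2.02 CPM. The groups came close but did not overlap (log2 fold change -1.06, SE 0.239, adjusted p = 0.000440). Tex12, the partner of SYCE2, was at 2.56, 1.69, 2.71 and 2.98 against 1.97, 1.06, 1.56 and 0.942 CPM. Its groups overlapped, and its call (log2 fold change -0.81, SE 0.280, adjusted p = 0.0200, edgeR) was lost with DESeq2 (adjusted p = 0.0811) and in 3 of 8 fits without 1 library. Syce3 did not pass the filter. Syce2 overlaps Gcdh and Tex12 overlaps Il18 in the annotation, on the opposite strand in both cases. The strand setting of the counting is not given in the sources used here, so the counts of both are uncertain. In all, 17 of the 35 members overlap another annotated gene, and this limit holds for each. Among them are Smc1b, Sycp1, Syce1 and Tex11 on the opposite strand. Those with an overlap on the same strand include Dmc1, Mei4, Mlh3 and Hfm1. Gcdh itself had 11 to 48 counts per library and Il18 had 2 to 7.

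Of the 5 break formation factors, 3 were tested, and 2 of those were lower in the libraries labelled null. Mei1 (chromosome 15, 82069996 to 82126814, plus strand) is needed for breaks to form. It was at 7.22, 4.45, 4.07 and 6.24 CPM in the libraries labelled wild-type and at 1.64, 1.19, 2.52 and 1.21 CPM in those labelled null. All libraries labelled null lay below all others (log2 fold change -1.73, SE 0.233, adjusted p = 9.37e-08). Rec114, a partner of MEI4 in the break machinery, was at 1.65, 1.69, 1.53 and 2.04 against 1.20, 0.132, 0.481 and 0.404 CPM. The groups did not overlap (log2 fold change -1.55, SE 0.385, adjusted p = 0.00139), but Rec114 passed the filter only through the libraries labelled wild-type, and its counts are uncertain because it overlaps Nptn and Gm20620. Prdm9, the histone methyltransferase that places breaks at hotspots, was at 0.752, 1.69, 1.70 and 0.950 against 2.18, 1.99, 2.76 and 1.61 CPM. The groups overlapped at 1 library, with a log2 fold change of 0.78 (SE 0.300, adjusted p = 0.0373, edgeR). The Prdm9 call was lost with DESeq2 (adjusted p = 0.143), without the filter (adjusted p = 0.0724) and in 4 of 8 fits without 1 library. Spo11 and Mei4 did not pass the filter.

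Strand exchange and crossover genes were divided. Tex15 (chromosome 8, 33516738 to 33585582, plus strand), needed for meiotic recombination and for transposon silencing, was among the most highly expressed of the 35. It was at 80.6, 67.8, 75.8 and 69.1 against 41.7, 43.8, 39.3 and 36.2 CPM. No library labelled null came near the others (log2 fold change -0.86, SE 0.0612, adjusted p = 2.97e-15, edgeR). Dmc1, the meiotic recombinase, had a log2 fold change of -0.45 that did not pass (adjusted p = 0.0867), although the genotypes did not overlap. Rad51ap2, counted with the strand exchange genes, had 0.61 (adjusted p = 0.164), also without overlap. Meiob and Spata22, a pair that binds single-stranded DNA, did not pass the filter. Spata22 overlaps Gm49340 on the same strand. Gm49340 had 0 counts in every library of both assays, so the counts of Spata22 are uncertain. Among the crossover genes, Tex11 (chromosome X, 100838648 to 101059667, minus strand) was the member with the lowest fold change of all. Its product helps to turn breaks into crossovers. Tex11 was at 11.4, 11.5, 8.65 and 10.4 CPM in the libraries labelled wild-type and at 1.97, 1.19, 2.40 and 2.15 CPM in those labelled null. All 4 libraries labelled null lay below 3 CPM (log2 fold change -2.43, SE 0.175, adjusted p = 4.78e-15). The other 4 crossover genes were not called. Msh4 (0.26) and Msh5 (0.55) encode a pair that forms a clamp on recombination intermediates. Mlh3 (-0.14) encodes part of the nuclease that resolves them, and Hfm1 (-0.34) a helicase; these 4 values are log2 fold changes with adjusted p of 0.104 to 0.447.

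The telomere genes Majin, Terb1 and Terb2 did not pass the filter. The RNA-binding partners Meioc (-0.34, adjusted p = 0.250) and Ythdc2 (-0.05, adjusted p = 0.748), which move germ cells from division into meiosis, had small log2 fold changes that were not called. Brdt, a testis bromodomain protein, had 0.29 (adjusted p = 0.187). Tex19.1, which restrains retrotransposons, was at 22.0, 20.6, 16.8 and 19.5 against 8.52, 14.3, 12.6 and 12.8 CPM. The groups did not overlap (log2 fold change -0.73, SE 0.109, adjusted p = 7.11e-07, edgeR). Altogether 11 tested members were not called, with log2 fold changes from -0.50 to 0.61, and the 8 untested genes had 0 to 17 counts per library. Of the 27 tested, 18 passed the filter in both genotypes; Rec8 and Rad51ap2 passed through the libraries labelled null alone and Rec114 through those labelled wild-type alone.

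**Figure D2:**
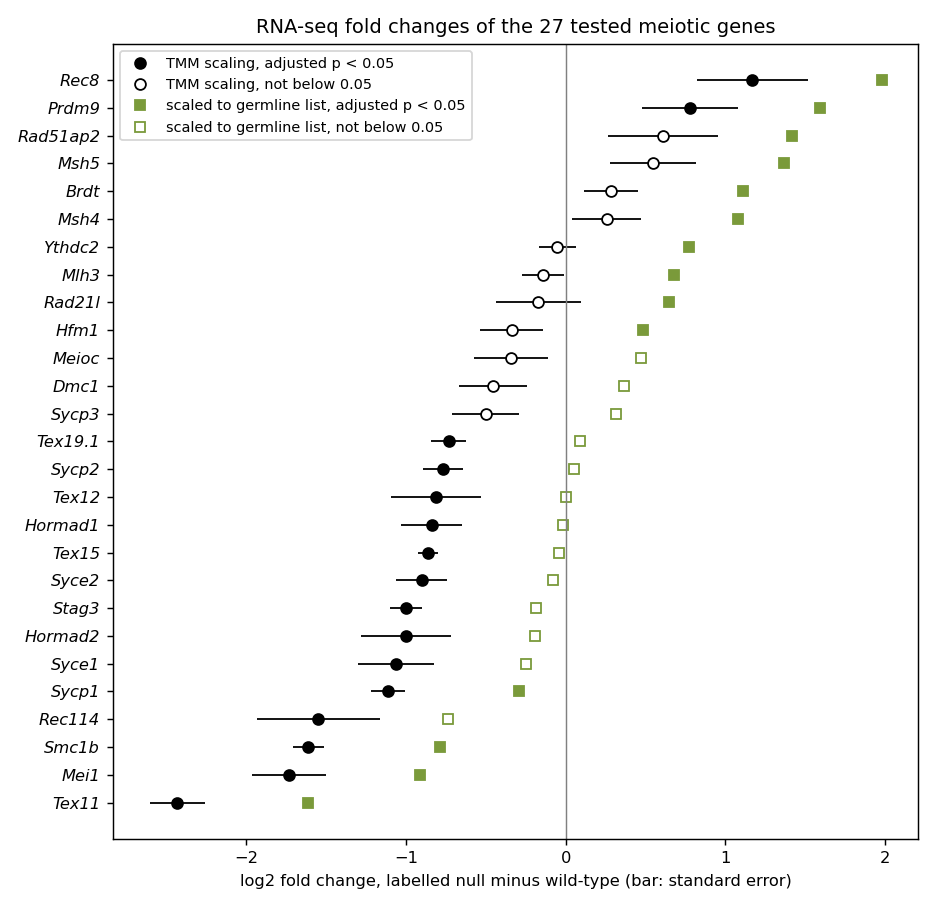
RNA-seq log2 fold changes (labelled null minus labelled wild-type) of the 27 tested members with their standard errors. Black marks the TMM scaling and green the scaling to 20 germ-cell genes, and filled symbols have an adjusted p under 0.05. With the second scaling Tex11, Mei1, Smc1b and Sycp1 remain called as lower.

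Relative to the 20 germ-cell genes, the 4 lower members were Tex11 (-1.61), Mei1 (-0.91), Smc1b (-0.79) and Sycp1 (-0.29), as log2 fold changes. On the same scale Rec8 (1.98), Prdm9 (1.59), Rad51ap2 (1.42) and Msh5 (1.37) were the highest of the 10 higher ones. Rec8 and Rad51ap2 had passed the filter through the libraries labelled null alone, so their direction was favoured by the filter. Of all genes, 11837 of the 11922 called were higher on this scale.

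Levels differed widely between members. Per kb of annotated exon length in the libraries labelled wild-type, Tex19.1 was the highest at 10.5 ± 1.17 CPM per kb (SD, n = 4), followed by Tex15 at 7.62 ± 0.623, Smc1b at 6.12 ± 0.489 and Sycp1 at 5.47 ± 0.528. Smc1b and Sycp1 did not differ beyond their spread. The next genes, Syce2 (3.72 ± 0.411), Stag3 (3.69 ± 0.43), Hormad1 (3.57 ± 1.03) and Sycp3 (3.16 ± 0.792), could not be ordered either. The lowest were Rec8 (0.262 ± 0.083), Spata22 (0.208 ± 0.151), Terb1 (0.204 ± 0.0843), Meiob (0.178 ± 0.195) and Mei4 (0.168 ± 0.0603), within each other's spread. The level of Spata22 is uncertain because of its overlap with Gm49340. In the libraries labelled null, Tex19.1 (6.44 ± 1.32) and Tex15 (4.18 ± 0.341) were still the highest, and Tex11 was at 0.532 ± 0.144 against 2.9 ± 0.367 CPM per kb.

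Other meiotic genes and the known repressors of this programme were counted for comparison. Of 27 further meiotic genes, 21 were tested and 15 were lower in the libraries labelled null, with a median log2 fold change of -0.79. Among those with the smallest p were Zcwpw1 (-1.22, adjusted p = 4.01e-12, edgeR), a reader of the histone marks that PRDM9 writes, Ankrd31 (-1.08), a regulator of break formation, Trip13 (-0.81), which removes HORMAD proteins, and Stra8 (-1.36), the switch of meiotic entry. Of 16 genes for repressors, 8 were lower with the null label and 2 were higher, with a median of -0.20. Among all genes tested, 18.9% were lower and 18.6% were higher. Among the 5 of smallest p, Uhrf1 (-0.65) and Dnmt1 (-0.49), which maintain DNA methylation, and Tfdp1 (-0.56) and L3mbtl2 (-0.71) were lower, and Ehmt2 (0.36), a histone H3 lysine methyltransferase, was higher. E2f6 (-0.11, adjusted p = 0.423), Max (-0.19, adjusted p = 0.246) and Mga (0.06, adjusted p = 0.376) were not called by edgeR.

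The iSLAM-seq comparison asked how the same genes differed between the Rhox10 and the empty vector in cells with knocked-down Rhox10. Spata22 had 0 counts in all 24 libraries, and the other 34 members were tested. Because Spata22 overlaps Gm49340, also at 0, its 0 counts do not show that it was not expressed. Averaged over 0.5 to 8 h, 11 members were lower with the Rhox10 vector (32.4%) and 1 was higher (2.94%), against 18.4% lower and 18.7% higher of all 20642 genes tested. The median log2 fold change was -0.11 over the members and 0.00 over all genes. The summed level of the 35 genes was 1963 to 2106 CPM with the empty vector (2053 ± 51.2, SD, n = 12) and 1568 to 1723 CPM with the Rhox10 vector (1658 ± 53.0, n = 12). All 12 called genes had the same sign at 0 h, before the induced times, and 10 of the 11 lower ones were below 0 at each of the 6 times. Without the 0.5 h libraries, 11 were lower and 3 higher (Brdt, Terb2 and Ythdc2), while 8006 of all genes were called, 4126 of them higher. The spermatogonial list moved too, at 1982 to 2274 CPM with the empty vector and 1657 to 1851 with the Rhox10 vector, as did the late spermatocyte and spermatid list (29.7 to 36.0 against 16.8 to 27.2 CPM, with Tnp1 at 0 in all libraries), and 15 of the 20 germ-cell genes were lower. Somatic markers summed to 1105 to 1696 and 1320 to 2049 CPM, and Amh, Insl3 and Hsd3b1 of that list were at 0 in all 24. The part of these lists in the differences was not tested.

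**Figure D3:**
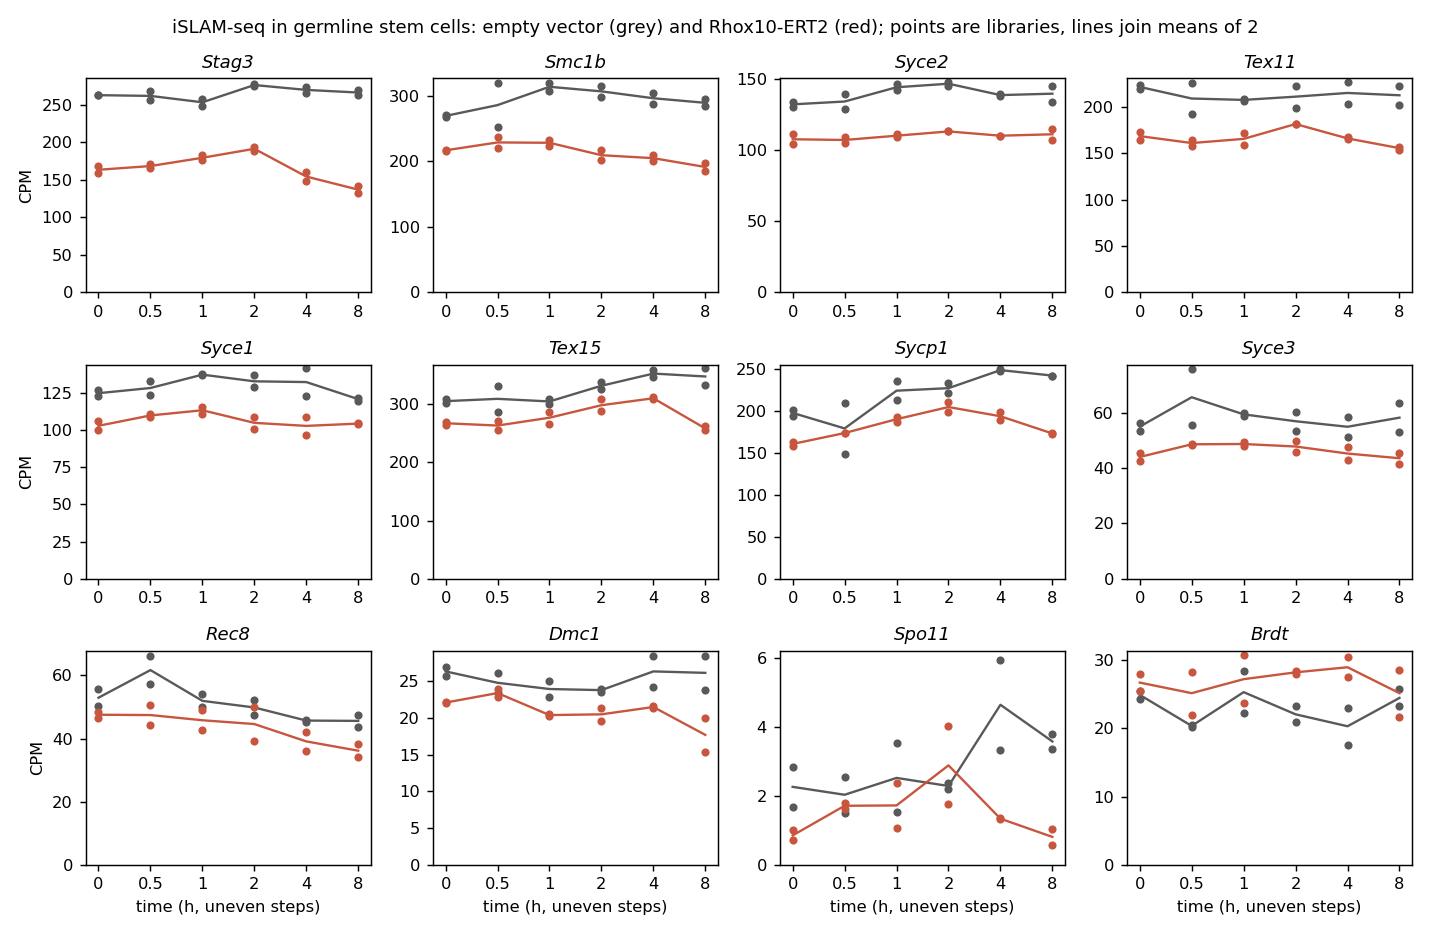
iSLAM-seq level in CPM at 0 to 8 h for the 12 genes called in the mean of the induced times. Each point is 1 library, grey for the empty vector and red for the Rhox10 vector, at uneven time steps. The Stag3 libraries of the vectors are already apart at 0 h, near 263 CPM against 159 and 168 CPM.

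Stag3 had the lowest adjusted p of the 34. At 0 h it was at 263 and 263 CPM with the empty vector and at 159 and 168 CPM with the Rhox10 vector. Over the 10 induced libraries of each vector the lowest, median and highest values were 249, 267 and 278 CPM against 132, 168 and 194 CPM. The vectors did not overlap at any time, and the mean log2 fold change was -0.69 (SE 0.0303, adjusted p = 2.47e-14, edgeR). It was -0.68 at 0 h, then -0.64 (0.5 h), -0.50 (1 h), -0.53 (2 h), -0.81 (4 h) and -0.96 (8 h), so the lowest values were the latest. Smc1b, the SMC partner of STAG3 in meiotic cohesin, was at 271 and 268 against 218 and 216 CPM at 0 h. Its induced values were 252, 302 and 320 against 185, 214 and 237 CPM (lowest, median, highest). The vectors did not overlap there either (mean log2 fold change -0.49, SE 0.0381, adjusted p = 4.87e-10). Rec8, higher in the libraries labelled null in RNA-seq, was at 55.7 and 50.2 against 48.5 and 46.6 CPM at 0 h and at 43.6, 48.8 and 66.2 against 34.1, 42.3 and 50.7 CPM after it. These ranges overlap, while the mean was lower with the Rhox10 vector (-0.26, SE 0.0599, adjusted p = 0.00141). Sycp2 had no call in the mean (-0.05, adjusted p = 0.345), and Hormad2 came just short of one (-0.23, adjusted p = 0.0561).

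Of the central region, Syce2, Syce1, Sycp1 and Syce3 were lower with the Rhox10 vector. Syce2 was at 134 and 130 against 111 and 104 CPM at 0 h and at 129, 141 and 148 against 105, 110 and 115 CPM after it. Syce1 was at 123 and 127 against 106 and 100 CPM at 0 h and at 120, 131 and 142 against 96.9, 109 and 116 CPM after it. For both genes the vectors did not overlap, with mean log2 fold changes of -0.35 (SE 0.0346, adjusted p = 2.37e-08) and -0.29 (SE 0.0386, adjusted p = 2.67e-06). Sycp1 was at 201 and 194 against 158 and 163 CPM at 0 h. Its induced values were 149, 234 and 250 against 172, 188 and 211 CPM. The overlap comes from the empty-vector libraries of 0.5 h, the pair that differed most from each other, at 209 and 149 CPM. The other induced empty-vector libraries were at 213 to 250 CPM. The mean was -0.26 (SE 0.0448, adjusted p = 6.60e-05, edgeR). Syce3, untested in RNA-seq, was at 56.5 and 53.6 against 45.4 and 42.7 CPM at 0 h and at 51.4, 58.8 and 75.8 against 41.6, 47.7 and 50 CPM after it. The vectors did not overlap (mean -0.33, SE 0.0590, adjusted p = 7.84e-05).

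Of the recombination genes, Tex11, Tex15, Dmc1 and Spo11 were lower with the Rhox10 vector. Tex11 was at 219 and 224 against 164 and 173 CPM at 0 h and at 192, 207 and 227 against 154, 165 and 182 CPM after it. The vectors did not overlap, with a mean log2 fold change of -0.35 (SE 0.0381, adjusted p = 1.19e-07). Tex15 was at 309 and 302 against 265 and 270 CPM at 0 h and at 287, 332 and 363 against 255, 279 and 312 CPM after it. Its ranges overlapped (mean -0.23, SE 0.0324, adjusted p = 5.07e-06, edgeR). Dmc1 was at 27 and 25.7 against 22.0 and 22.2 CPM at 0 h and at 22.8, 24.1 and 28.5 against 15.4, 20.9 and 23.9 CPM after it. This recombinase overlapped slightly between the vectors, with a mean of -0.28 (SE 0.0663, adjusted p = 0.00178). Spo11, the enzyme that cuts DNA, was at 2.84 and 1.69 against 1.00 and 0.708 CPM at 0 h and at 1.51, 2.96 and 5.95 against 0.580, 1.48 and 4.02 CPM after it. These are 15 to 59 and 6 to 50 counts per library, and the groups overlap (mean -0.87, SE 0.238, adjusted p = 0.00534). Brdt was the 1 member that was higher with the Rhox10 vector. It was at 25.5 and 24.3 against 25.5 and 27.9 CPM at 0 h and at 17.6, 22.6 and 28.4 against 21.7, 28.2 and 30.7 CPM after it. The ranges overlapped widely (mean 0.26, SE 0.0795, adjusted p = 0.0112). The 22 members not called had mean log2 fold changes from -0.39 to 1.15 and adjusted p from 0.0561 to 0.954 (edgeR), the highest fold being that of the telomere gene Terb2, which was at 0.00 to 2.78 CPM. Among the other lists, 12 of 25 tested meiotic genes were lower and Stra8 was the 1 that was higher (0.41, adjusted p = 2.18e-06, edgeR), while of the 16 repressor genes 5 were lower and 2, Cbx3 and Max, were higher, against 18.4% lower and 18.7% higher of all genes.

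The difference between the vectors was present at 0 h. Here 5 members were lower (14.7%) and none of the 34 was higher with edgeR, against 4.32% lower and 6.56% higher of all genes. DESeq2 called 6 lower and none higher. No member was higher at an unadjusted p under 0.05 either, and 9 were lower at that level. The 5 were Stag3, Tex11 (-0.40), Smc1b (-0.31), Syce2 (-0.30) and Syce1 (-0.28), and the median over all 34 was -0.17. Of these calls, that of Syce1 was lost in 16 of 24 fits without 1 library (adjusted p 0.00455 to 0.239), that of Smc1b in 4 (up to 0.107), that of Syce2 in 3 (up to 0.149) and that of Tex11 in 1 (0.0532, without Rhox10 replicate 1 of 0 h), while that of Stag3 was kept in all 24. The number called at 0 h was 2 without any 1 of the 4 libraries of that time and 8 without either empty-vector library of 0.5 h. At 8 h, 9 members were lower (26.5%), against 8.79% of all genes lower and 8.06% higher, with a median of -0.31. Besides Stag3 these were Spo11 (-2.14), Smc1b (-0.60), Dmc1 (-0.57), Sycp1 (-0.49), Tex11 (-0.45), Tex15 (-0.43), Syce3 (-0.42) and Syce2 (-0.33). Spo11 had 10 and 6 counts in the Rhox10 libraries at 8 h. The Spo11 and Dmc1 calls were lost without empty-vector replicate 1 or Rhox10 replicate 2 of 8 h. Spo11 was then at -2.01 and -1.76, and Dmc1 at -0.40 and -0.37. That of Syce2 was lost without empty-vector replicate 2 or Rhox10 replicate 1 of 8 h (-0.25 in each). Without the filter the Dmc1 call was lost too (adjusted p = 0.0523, edgeR). The Syce3 call at 8 h was lost in 21 of 24 fits without 1 library (adjusted p 0.00323 to 0.361). Whether the difference changed from 0 h was tested directly. Only Stag3 of the 34 passed (adjusted p = 0.0322, edgeR), against 2.39% of all genes. That call was lost in 22 of 24 fits without 1 library, with an adjusted p of up to 0.25, and was kept without both 0.5 h groups (adjusted p = 0.000111, 2 members called). Without both 0.5 h groups, 1496 of all 20642 genes were called, against 494 with all libraries.

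Within each vector, 8 h was compared with 0 h. With the empty vector, edgeR and DESeq2 each called 0 of 34 members, against 3.84% of all genes higher and 2.68% lower in edgeR. At an unadjusted p under 0.05, 2 members were higher and 2 lower. With the Rhox10 vector, Sycp2 rose from 92.2 and 105 CPM to 126 and 138 CPM (log2 fold change 0.43, SE 0.0958, adjusted p = 0.00625, edgeR). Both libraries at 8 h lay above both at 0 h. Stag3 fell from 159 and 168 CPM to 132 and 142 CPM (-0.26, SE 0.0685, adjusted p = 0.0233), also without overlap. The Stag3 call was lost in 8 of 24 fits without 1 library (adjusted p 0.00152 to 0.289), among them those without any 1 of these 4 libraries, and also with library totals (adjusted p = 0.0515) and without the filter (adjusted p = 0.148). That of Sycp2 was lost in 2 of 24 (up to 0.101). Of all genes, 3.12% rose and 4.06% fell with that vector. Without the second Rhox10 library at 8 h, or the first at 0 h, no member was called, and 5 were called without either empty-vector library of 0.5 h. The same omission gave 2 calls for the empty vector.

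In all, 27 members were tested in both assays, and 8 were called in both. The RNA-seq contrast compares libraries labelled null with those labelled wild-type, and the iSLAM-seq contrast compares cells given Rhox10 with cells not given it. By the labels, these contrasts run in opposite senses for Rhox10. A gene lower in both was thus lower under the null label and also lower with added Rhox10. Stag3, Smc1b, Sycp1, Syce1, Syce2, Tex15 and Tex11 were lower in both, 25.9% of the 27, against 7.87% of the 12562 genes tested in both. Rec8 was called in both with opposite signs, as were 641 of all 2406 genes called in both. The 7 that were lower in both include 2 cohesin subunits, 3 proteins of the synaptonemal complex and 1 factor each of strand exchange and crossover formation. Mei1, with -1.73 in RNA-seq, had -0.02 in iSLAM-seq (adjusted p = 0.954), and Tex19.1, with -0.73, had -0.05 (adjusted p = 0.795, edgeR). The difference between the assays was not tested.

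**Figure D4:**
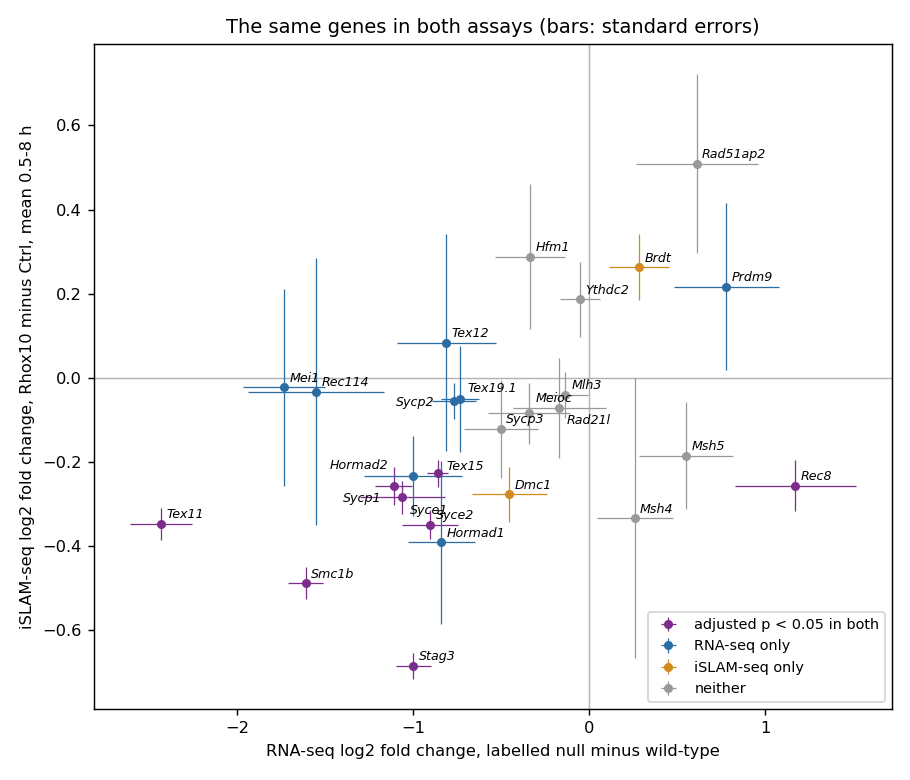
Log2 fold changes with standard errors of the 27 members tested in both assays, RNA-seq (labelled null minus labelled wild-type) on the x axis and iSLAM-seq (Rhox10 minus empty vector, mean of 0.5 to 8 h) on the y axis. Colours mark the assay in which the adjusted p is under 0.05, and 7 of the 8 genes called in both lie at the lower left, with Rec8 at the lower right.

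The peak table gave 9 RHOX10 peaks annotated to members, 1 per gene, among 5147 peaks that each list all 3 RHOX10 libraries. Scores are the authors' and had a median of 127.5 over all peaks. Within 3 kb of the start lay the peaks of 8 of the 35 members (22.9%). Of the 27 members tested in RNA-seq, 6 had such a peak (22.2%), against 27.3% of all genes tested. The strongest belonged to Rad21l, in intergenic sequence 2202 bases upstream of the start (chromosome 2, 151670451 to 151671019, score 566.8, above 95.5% of peaks). Meioc had a peak 177 bases upstream of its start (chromosome 11, 102665105 to 102665712, score 293), and Mei4 one 49 bases upstream (chromosome 9, 81863465 to 81863925, score 205.1). These cover the Meioc and Mei4 promoters printed at the beginning. Dmc1 (chromosome 15, 79604887 to 79605531, score 165.1, 100 bases upstream), Hfm1 (chromosome 5, 106925706 to 106926177, score 154.2, 51 bases upstream) and Rad51ap2 (chromosome 12, 11455660 to 11456234, score 86.6, 132 bases upstream) followed. Meiob had a peak at its start (chromosome 17, 24803833 to 24804937, score 67.13). The weakest was that of Smc1b (chromosome 15, 85131550 to 85132404, score 26.57, above 2.1% of peaks). It lies 20 bases upstream of the Smc1b start and 101 bases from the start of Ribc2, so it covers both starts. The peak of Brdt lay in an intron, 28324 bases from the start used by the authors and 319 bases from another Brdt start in GENCODE M21 (chromosome 5, 107359264 to 107359772, score 115.8). These coordinates are those of the authors' table on mm10.

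Peaks were set beside the expression calls. Of the 6 tested members with a peak within 3 kb, Smc1b was the 1 that was called in RNA-seq, while 15 of the 21 without one were called. Over all genes tested, 35.8% of those with a peak within 3 kb and 38.1% of those without one were called in either direction. In the iSLAM-seq mean, 2 of the 8 peak genes were called, Smc1b and Dmc1, against 48.5% of all genes with such a peak. These counts of members are small and are given as a description. Of the 8 genes called in both assays, Smc1b alone had a peak within 3 kb; no peak was annotated to Stag3, Rec8, Sycp1, Syce1, Syce2, Tex15 or Tex11.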

How the data were processed

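RNA-seq counts per gene were deposited by the authors, who used STAR 2.5.2b, Subread and featureCounts on GRCm38, per the submitters' processing notes. The iSLAM-seq counts were deposited for mm10. The strand setting, and whether all reads or only converted reads were counted in iSLAM-seq, are not given in the sources used here. The authors' peak table carries a score for each peak, and Bowtie2 2.2.5, SAMtools and HOMER on mm10 are named for that assay, per the submitters' processing notes.

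Of the 55536 gene identifiers, 55450 were in GENCODE M21 with equal start and end. The members, gene lists, alternatives and tests were chosen with earlier results of these data known. Counts were tested with edgeR 4.0.16 (quasi-likelihood, TMM, filterByExpr, which needs about 10 counts in 4 RNA-seq libraries, Benjamini-Hochberg adjustment, threshold 0.05) in R 4.3.3, by genotype for RNA-seq and over 12 group means for iSLAM-seq. The installed limma, on which edgeR builds, was 3.58.1. The standard error of a log2 fold change is its size over the root of its F statistic. Genes with per-library values are those called in either assay, up to 5 per role in order of p, and the others are given by range. Of the other meiotic and repressor lists, the 5 called genes of smallest p were named, except 1 that is not reported here, and E2f6, Max, Mga, Cbx3 and the iSLAM-seq value of Stra8 were added after their values were seen. Promoters are RefSeq, GRCm38.p6, and those mostly within annotated exons (Stag3, Rec8 and 1 start of Syce2) are not printed. On simulated counts with 200 changed genes, the RNA-seq test recovered 200 among 13211 genes with 6 false calls, and the mean iSLAM-seq contrast recovered 200 among 19836 with 12. Among the same 19836 genes, 189 were recovered at 8 h (7 false) and 148 in the F-test against 0 h (6 false). The RNA-seq data had 5071 called genes, so the simulated setting differs from the data and does not measure how well changes of the members are recovered. Alternatives were DESeq2 1.42.0, other scalings, no filter, a fold threshold, a replicate block and leaving out libraries. Antibody and IgG control signals were not used here.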

Additional observations from a re-analysis of the deposited data

Results flagged for a closer look

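Among 70 groups of 4 RNA-seq libraries (35 genes, 2 genotypes), 6 had a single library set apart from the other 3 in CPM. About 3.5 were expected by chance, a number that need not hold for low counts. The gap of that library to its nearest neighbour is given as a share of the group's range. In the libraries labelled wild-type, Rec8 was low in replicate 4 (0.407 CPM against 0.848 to 0.92, gap 0.86), Sycp2 was high in replicate 1 (14.4 against 11.2 to 11.7 CPM, gap 0.844) and Ythdc2 was low in replicate 2 (9.51 against 12.5 to 13.1 CPM, gap 0.833). In the libraries labelled null, Syce2 was high in replicate 2 (4.77 against 3.5 to 3.71 CPM, gap 0.835). Replicate 4 of the same label was high for Spata22 (0.404 against 0.109 to 0.132 CPM, gap 0.922) and for Rad51ap2 (1.75 against 1.42 to 1.46 CPM, gap 0.879). Over all genes, that replicate 4 differed from its replicates by more than these differed among themselves (chi-square per degree of freedom 4.02 to 4.49 against 1.37 to 1.54). Of the flags, 3 rest on few counts. Rad51ap2 had 13, 11, 12 and 13 counts in the libraries labelled null, so replicate 4 equalled replicate 1 in counts. Spata22 had 1, 1, 1 and 3 counts there, and Rec8 had 6, 6, 5 and 3 in the libraries labelled wild-type. The difference of Stag3 between the vectors changed from 0 h (adjusted p = 0.0322, edgeR), and that call was lost in 22 of 24 fits without 1 library.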

How the results depend on the processing

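Depth limits the low genes most: 8 members could not be tested in RNA-seq, and the called Rec8, Rec114 and Prdm9 rest on few counts. Without the filter the Syce2 call at 0 h was lost (adjusted p = 0.0643, edgeR). Scaling to 20 germ-cell genes turned the RNA-seq direction of Rad21l (0.649), Sycp2 (0.0541), Hfm1 (0.484), Tex12 (0.0057), Tex19.1 (0.0924), Mlh3 (0.681), Ythdc2 (0.771), Sycp3 (0.318), Dmc1 (0.365) and Meioc (0.475), as log2 fold changes, and library totals turned Ythdc2 (0.292). With a fold threshold of 1 on the log2 scale, 9 members were called in RNA-seq and 0 in the iSLAM-seq mean. Of all genes, 446 of 13538 and 864 of 20642 were called at that threshold. In the test of change from 0 h, library totals and no filter each left 0 members, and dropping both 0.5 h groups gave 2. Of all genes, these settings called 476, 1002 and 1496, in the same order. For 8 h against 0 h with the Rhox10 vector, library totals and no filter each gave 1. With only the peaks above the median score, 5 members had one within 3 kb. Leaving out 1 library at a time gave 14 to 16 members in RNA-seq, 12 to 15 in the iSLAM-seq mean, 2 to 8 at 0 h, 6 to 11 at 8 h, 0 to 5 for change from 0 h, 0 to 2 for the empty vector over time and 0 to 5 for the Rhox10 vector. Each highest iSLAM-seq count came without an empty-vector library of 0.5 h. The cause was not tested.

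Replicate numbers recur in the titles of each group, but same-numbered libraries did not deviate together (correlations -0.0192 to 0.0140 in RNA-seq and -0.0146 to 0.0353 in iSLAM-seq). With a replicate block, 17 members were called in RNA-seq, 13 in the iSLAM-seq mean, 6 at 0 h, 9 at 8 h, 1 for change, 0 for the empty vector and 3 for the Rhox10 vector over time. Over all genes these fits called 5066, 7687, 2314, 3513, 502, 1339 and 1505, in the same order.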
